A study of Arabidopsis thaliana with 6 samples.

Results

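PDF1.2 (AT5G44420), PDF1.2b (AT2G26020) and PDF1.4 (AT1G19610) are plant defensin genes, which encode small secreted cysteine-rich peptides. They were picked as the genes to which the array platform's annotation assigns a probe set (the group of probes that reads out 1 transcript) alone. That gave 3 probe sets, 1 per gene, among the 13513 with a single named gene and the 22746 kept in all. PDF1.2 was read by 249052_at, PDF1.2b by 257365_x_at and PDF1.4 by 261135_at. The genes were chosen by their estradiol minus DMSO differences at 3 h and in each 5 h pair of these arrays, which were already known. Those differences between estradiol and DMSO are therefore given as descriptions, without a test, for each of the 3 genes.

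The samples were shoots of Arabidopsis thaliana seedlings, 2 weeks old, in the Col-0 background. All 6 carried MYB112-IOE, in which estradiol switches on MYB112, and all were of a single line, line 1. Seedlings had been grown in continuous light at 22 °C, spent 16 h in shaken liquid medium and then received 10 µM β-estradiol or, as control, DMSO. There was 1 array per treatment at 3 h and 2 per treatment at 5 h, and the study asked which genes respond early to MYB112. The labels number the 5 h samples as biological replicates without saying whether each had its own flask. Seedlings without the construct, treated with estradiol, were not analysed here, so an effect of estradiol itself cannot be told apart from one of MYB112. In bulk shoots, fewer cells that express a gene and less RNA per cell cannot be told apart either.

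PDF1.2 is the standard marker of the branch of plant defence that jasmonate and ethylene activate together, the branch used against fungi that kill host tissue. In that branch the ethylene response factors ERF1 and ORA59 bind the GCC box in defensin promoters. MYC transcription factors drive the competing wound branch of the jasmonate response. PDF1.2b is a close copy of PDF1.2, and PDF1.4 is a more distant member of the same defensin group. MYB112 is an R2R3-MYB transcription factor known for promoting anthocyanin formation under salt and high light, and its own level was not analysed here.

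The array values are on a log scale, and no source used here states its base. Base 2 was inferred from their range of 2.1 to 15.35, and every fold below depends on that reading. The arrays fall into pairs of estradiol and DMSO with the same time and replicate number, and each pair had its own floor, 2.1 at 3 h, 2.14 in replicate 1 of 5 h and 2.16 in replicate 2. The Pearson correlation over probe sets was at least 0.994 within pairs and at most 0.968 between them. The pairs were accordingly treated as normalized separately, so differences are read within a pair. A level in one pair is set against a level in another only where this is stated. All 3 defensin probe sets were at or above the filter of 3.56 on 6 of 6 arrays. Their lowest distance from the floor of an array was 2.34, for PDF1.4 in replicate 2 of 5 h.

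The defensins PDF1.2 and PDF1.2b were lower with estradiol in both 5 h pairs and higher with it at 3 h. PDF1.2b had the larger difference at 5 h, with a mean of -2.70 on the log2 scale (SD 1.16, n = 2 pairs), which is 6.50-fold lower. PDF1.2 was lower by a mean of 2.17-fold, a log2 difference of -1.12 (SD 0.27, n = 2 pairs). PDF1.4 had a mean of -0.56 (SD 0.71, n = 2 pairs), which is smaller than the spread between its pairs.

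**Figure D1:**
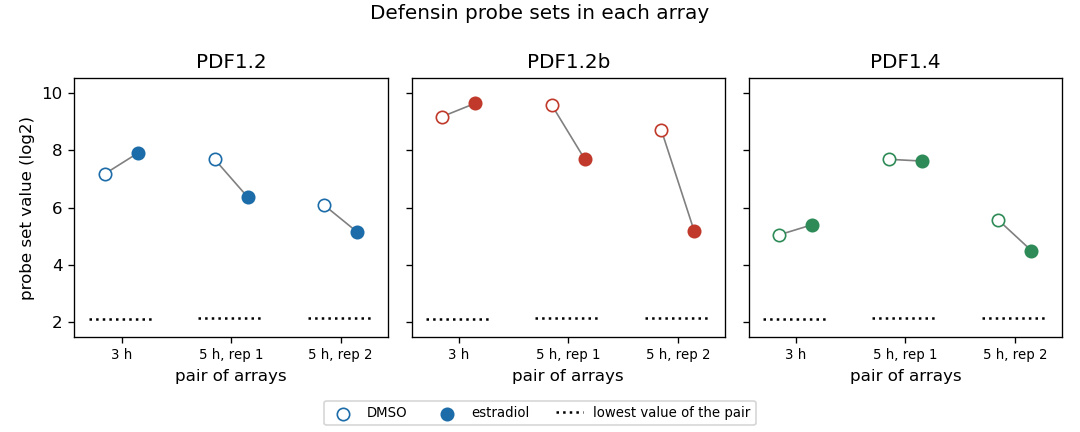
Probe set values (log2) of PDF1.2, PDF1.2b and PDF1.4 on each of the 6 arrays, 1 panel per gene, with the pair of arrays on the horizontal axis. Open points are DMSO, filled points estradiol, lines join the arrays of a pair, and dotted lines mark the lowest value in each pair; the widest gap is that of PDF1.2b in replicate 2 of 5 h, with 8.70 in DMSO and 5.18 in estradiol.

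PDF1.2, the marker gene of the branch, had a value of 7.90 with estradiol and 7.18 with DMSO at 3 h. At 5 h its values were 6.37 with estradiol and 7.68 with DMSO in replicate 1, and 5.15 and 6.08 in replicate 2. The estradiol array was thus the higher of its pair at 3 h and the lower in both pairs at 5 h. Taken across the 5 h pairs, which were treated as normalized separately, the values of the treatments overlapped. Within pairs the log2 difference was 0.72 at 3 h, -1.31 in replicate 1 and -0.93 in replicate 2. The difference was thus 2-fold or more in replicate 1 and just short of it in replicate 2.

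PDF1.2b, the close copy, had values of 9.63 with estradiol and 9.17 with DMSO at 3 h. In replicate 1 of 5 h the values were 7.69 and 9.57, and in replicate 2 they were 5.18 and 8.70. Both estradiol values of 5 h lay below both DMSO values, again across pairs treated as normalized separately. Of the 14078 probe sets tested at 5 h, 9.82% had treatments separated in that direction, and nothing is read from the separation, because these arrays were used to choose the gene. The log2 differences were 0.46 at 3 h, -1.88 in replicate 1 and -3.52 in replicate 2, or 3.68-fold and 11.5-fold lower at 5 h. The 2 pairs at 5 h thus differed by 1.64 in the size of the effect, although both had the same direction.

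The suffix _x_at on the probe set of PDF1.2b marks probes that can also match other transcripts. The annotation gives it to PDF1.2b alone, but it may read close copies as well, so its values are uncertain as a measure of this 1 gene. Candidates are PDF1.2 itself and the copies PDF1.2c and PDF1.3, and no probe sequence was used to rank them. For PDF1.2c and PDF1.3 no probe set was named here. Whether the probe sets of PDF1.2 and PDF1.2b share signal was not tested. In the RefSeq annotation of TAIR10.1, PDF1.2c is the next gene after PDF1.2, and PDF1.3 directly precedes PDF1.2b. The probe set of PDF1.2 carries no such suffix. The estradiol minus DMSO difference of PDF1.2b less that of PDF1.2 was -0.26 at 3 h and -0.57 in replicate 1 of 5 h. In replicate 2 it was -2.59, so the probe sets of the close copies diverged most there. Whether signal from other copies takes part in that gap was not tested.

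PDF1.4, also known as LCR78, had values of 5.40 with estradiol and 5.05 with DMSO at 3 h. In replicate 1 of 5 h they were 7.62 and 7.68, and in replicate 2 they were 4.50 and 5.56. The log2 differences were 0.35, -0.06 and -1.06. In replicate 1 the treatments were thus nearly equal, and the lower mean at 5 h rests on replicate 2. Across the 5 h pairs the values of the treatments overlapped, with the same limit on comparing levels between pairs.

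Set against all 14520 probe sets above the filter, PDF1.2b lay below the 1st percentile in both 5 h pairs (-0.83 and -1.23). PDF1.2 lay below it in replicate 1 alone and PDF1.4 in neither, and these values were used to choose the genes. PDF1.2b had the lowest difference of all in replicate 2 and also the lowest mean over both 5 h pairs. In replicate 1, 13 probe sets, itself included, were as low or lower. PDF1.2 had 33 as low or lower in replicate 1 and 334 in replicate 2, and for PDF1.4 the numbers were 4557 and 241. At 3 h, 0.689% of probe sets were as high as PDF1.2 or higher, 2.55% as high as PDF1.2b and 4.93% as high as PDF1.4. The spread over probe sets was wider in replicate 2 of 5 h (SD 0.41) than in replicate 1 (SD 0.33) or at 3 h (SD 0.26), so a difference of a given size was more common there.

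**Figure D2:**
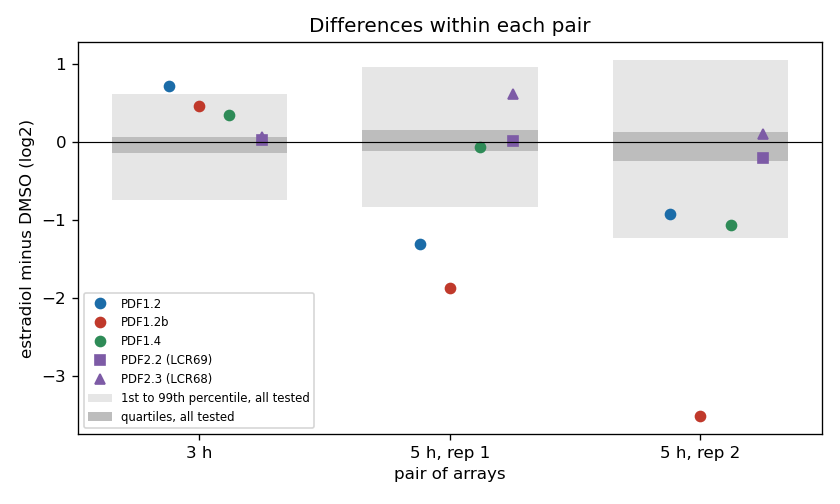
Estradiol minus DMSO (log2) in each pair of arrays for the 3 defensins and for PDF2.2 and PDF2.3, over grey bars for all 14520 tested probe sets (light, 1st to 99th percentile; dark, quartiles). PDF1.2b lies below the light bar in both 5 h pairs, at -1.88 and -3.52, and PDF1.2 lies below it in replicate 1, at -1.31.

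Counted at 2-fold, 2 of the 3 defensins were lower in replicate 1 of 5 h, where 0.606% of all tested probe sets were. In replicate 2 there were also 2 of 3, where the background was 1.98%. The genes were not the same in both, since PDF1.2 passed 2-fold only in replicate 1 and PDF1.4 only in replicate 2. PDF1.2b passed it in both pairs, as did 33 probe sets in all (0.227%), of which 16 had 1 named gene. At 3 h, 0 of the 3 were 2-fold higher, against 0.213% of probe sets.

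All 3 defensins were higher at 3 h and lower in both 5 h pairs, a sequence of signs that 7.59% of the tested probe sets had. For PDF1.4 the sign in replicate 1 rests on a difference of -0.06. Among the 33 probe sets 2-fold lower in both 5 h pairs, 4 were higher at 3 h, and PDF1.2b was the 1 of these with a named gene. These shares are printed as background, and nothing is read from them, since the same arrays were used to choose the genes.

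**Figure D3:**
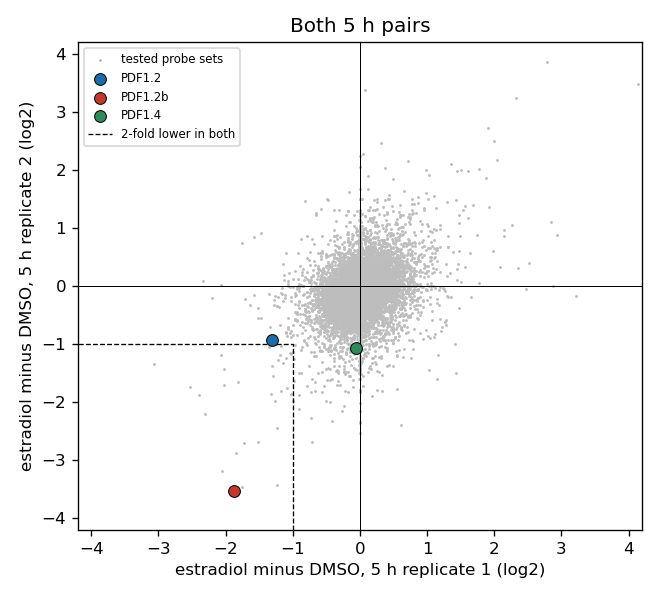
Estradiol minus DMSO (log2) in replicate 1 of 5 h (horizontal) against replicate 2 (vertical) for the tested probe sets (grey) and the 3 defensins (coloured); 3 probe sets lie beyond the axes. PDF1.2b sits inside the dashed corner of probe sets 2-fold lower in both pairs, while PDF1.2 and PDF1.4 each lie past 2-fold in 1 pair.

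Named probe sets with the pattern nearest to each defensin were taken by Euclidean distance over the 3 pair differences. For PDF1.2b the nearest was AT2G43590, at a distance of 0.99. Its differences were -0.29 at 3 h and -1.24 and -3.43 in the 5 h pairs. Its values were 8.04 with estradiol and 8.33 with DMSO at 3 h, 6.91 and 8.15 in replicate 1, and 4.12 and 7.55 in replicate 2. Like PDF1.2b it had its widest gap in replicate 2, but it was not higher with estradiol at 3 h. The next, AT1G49200, AT3G07350 and AT1G15010, were at distances of 1.97, 1.98 and 2.00, well behind AT2G43590.

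For PDF1.2 the nearest were AT2G40480 at 0.57, AT4G24350 at 0.74, AT3G19470 at 0.80 and SIS at 0.81. AT2G40480 differed by 0.47, -0.80 and -0.97 in the 3 pairs, and AT4G24350 by 0.34, -0.67 and -0.91. Both were higher at 3 h and lower in both 5 h pairs, as PDF1.2 was, signs that picking by these differences favours. AT3G19470 and SIS were not higher at 3 h, with -0.07 and 0.00. On both 3 h arrays SIS was at 2.14, under the filter. For PDF1.4 the nearest were AT1G23140 at 0.05, AT4G09500 at 0.09, AGL24 at 0.10 and AT1G66510 at 0.15. AGL24, a MADS-box transcription factor of flowering, differed by 0.43, 0.00 and -1.04. Distances over 3 pairs describe these arrays only, and the smaller differences of PDF1.4 leave more probe sets near it.

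The 2 other plant defensins above the filter differed by less than 2-fold in every pair, as most tested probe sets did. At least 2-fold lower were 0.606% of tested probe sets in replicate 1 of 5 h and 1.98% in replicate 2. Of 12 listed, 9 had a named probe set and 2 of those were above the filter, PDF2.2 (LCR69) and PDF2.3 (LCR68). PDF2.2 had values of 12.76 with estradiol and 12.73 with DMSO at 3 h, 12.60 and 12.59 in replicate 1 and 12.62 and 12.82 in replicate 2. PDF2.3 had 12.32 and 12.26, 12.43 and 11.81, and 12.06 and 11.96. Their differences were 0.03, 0.01 and -0.20 for PDF2.2 and 0.06, 0.62 and 0.10 for PDF2.3, and the treatments of each lay close together. PDF1.1 (LCR67), another member of the PDF1 group, had 2.1 to 2.52 on the 6 arrays, and the other 6 under the filter reached at most 2.90. For PDF1.2c, PDF1.3 and PDF1.5 no probe set was named here.

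Fits over all probe sets gave the calls for genes other than the defensins, and limma called 0.0071% of 14078 probe sets at 5 h and 0.00689% of 14520 over both times. That is 1 probe set in each, which has no named gene here and was higher with estradiol. These fits had no term for the pair, so gaps between pairs treated as normalized separately counted as spread. In them, 162 and 276 probe sets had an unadjusted p under 0.05 by limma. Adding the pair as a block left 0 calls by limma in both fits, with 1167 and 1415 at an unadjusted p under 0.05, and without either 5 h estradiol array it also called 0 in both. Of the 117 entries in the lists of other defensin, jasmonate, ethylene, wound, salicylic acid, camalexin, antimicrobial peptide and peptide deformylase genes, 21 had a named probe set and 12 were above the filter. Of these, limma called 0 of 11 tested at 5 h and 0 of 12 over both times, with 0 at an unadjusted p under 0.05 in either. With the pair as a block it also called 0 at both, with 0 and 2 at an unadjusted p under 0.05. Those 2 were the peptide deformylases PDF1A and PDF1B, enzymes that share only the letters of the name. With so few calls among all probe sets, the lack of calls in the lists does not show that these genes did not change.

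Above the filter were 1 of 15 jasmonate synthesis genes, 2 of 18 jasmonate signalling genes and 1 of 17 ethylene genes. These few cannot stand for their pathways. OPCL1, an enzyme of jasmonate synthesis, differed by 0.01, 0.40 and -0.71 in the 3 pairs. It was thus higher with estradiol in one 5 h pair and lower in the other. The transcription factors of the wound branch MYC3 and MYC4 differed by 0.00, 0.22 and 0.34 and by 0.19, 0.40 and -0.02. EIN3, the transcription factor at the end of the ethylene signalling chain, had values of 9.68 and 9.81 at 3 h, 9.42 and 9.33 in replicate 1 and 9.36 and 9.34 in replicate 2, estradiol first. Its differences of -0.13, 0.09 and 0.02 were small in each pair. Of the 12 genes of the joint jasmonate and ethylene branch, ERF1 and ORA59 among them, 0 had a named probe set, so the regulators nearest to PDF1.2 were not analysed here. Of the 10 genes of the wound list, 1 had a named probe set, which was under the filter. Of the 6 camalexin genes, 0 had one, so these lists were largely not analysed either.

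Of the salicylic acid genes, which act in a pathway that often opposes jasmonate, GRX480, a glutaredoxin induced by salicylic acid, differed by -0.47, 0.34 and 0.32. Its values were 5.59 with estradiol and 6.06 with DMSO at 3 h, 6.19 and 5.85 in replicate 1, and 3.28 and 2.96 in replicate 2. In replicate 2 both values were under the filter of 3.56. Limma gave GRX480 an adjusted p of 1 at 5 h and over both times (n = 2 and 3 arrays per treatment). Those fits had no term for the pair, so this p does not measure the spread of the pair differences. SAG101, a partner of the immune regulator EDS1, differed by 0.00, 0.21 and 0.05. Among other antimicrobial peptides, the thionin THI2.1 had 6.28 and 6.42 at 3 h and at most 2.45 at 5 h, and THI2.2 differed by 0.00, 0.69 and -0.06. Only 2 of the 14 salicylic acid genes and 2 of the 11 other antimicrobial peptides had a probe set above the filter. Their medians in the 3 pairs, each of 2 genes, were -0.23, 0.28 and 0.18 for salicylic acid and -0.07, 0.34 and -0.03 for the thionins. All tested probe sets had medians of -0.01, 0.00 and -0.04. At 5 h the thionin medians include THI2.1, which was under the filter there.

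**Figure D4:**
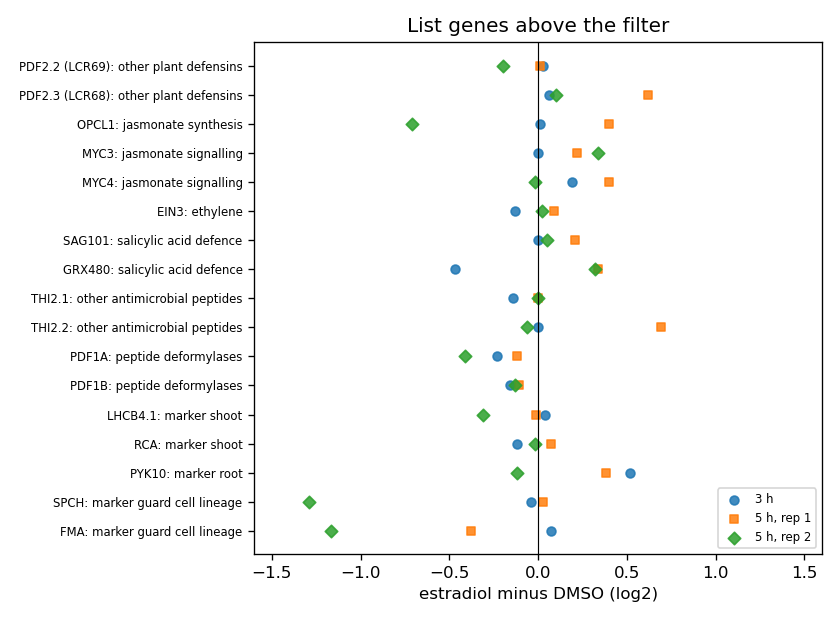
Estradiol minus DMSO (log2) in each of the 3 pairs (symbols) for the 17 list and marker genes above the filter, 1 gene per line with its list. Apart from SPCH and FMA in replicate 2 of 5 h, at -1.29 and -1.17, every point lies within 1 of zero.

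Markers of other tissues were set beside these values. Of the 6 shoot markers 2 had a named probe set, and of the 3 flower and 3 seed markers 0 had one. The 2 leaf genes, LHCB4.1 and RCA, were high on all arrays, between 12.72 and 13.84, in line 1 shoots of either treatment. The root hair genes EXPA7 and EXPA18 were at most 2.96, under the filter. PYK10, a root and hypocotyl β-glucosidase, lay between 11.34 and 12.40 and differed by 0.52, 0.38 and -0.12. The other 5 of 8 root markers had no named probe set. The stomatal regulators SPCH and FMA differed by -0.04, 0.03 and -1.29 and by 0.07, -0.38 and -1.17, and MUTE was at most 2.22. In replicate 2 of 5 h SPCH and FMA were thus lower with estradiol, as the defensins were. In replicate 1 FMA was lower and SPCH nearly equal. The estradiol values of SPCH and FMA in replicate 2, 3.17 and 3.41, were under the filter of 3.56, with DMSO at 4.46 and 4.58. In that pair 1.98% of all tested probe sets were at least 2-fold lower. The part of these tissue and cell type markers in the defensin differences was not tested.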

How the data were processed

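Biotin-labelled RNA of 6 shoot samples was hybridised to Affymetrix ATH1 arrays, 1 sample each. The authors deposited probe set levels on a log scale, read here as log2 from their range. Per the submitters' processing notes, GCRMA and RMA were used, with no role or version stated. Of 22810 probe sets, 64 controls were left out. Names came from the platform annotation, updated to RefSeq through gene numbers.

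Differences of estradiol and DMSO arrays were taken within pairs. Fits over all probe sets used limma 3.58.1 in R 4.3.3 (lmFit, then eBayes with its trend option; two-sided p-values adjusted by Benjamini-Hochberg, threshold 0.05) on probe sets with at least 2 arrays at the 40th percentile. The main fits had no term for the pair, and the fit over both times had a term for time. They were also run on simulated data with independent noise and no pair structure, which does not show how they perform on these arrays. Precision is limited by the number of arrays. The deviations of same-numbered arrays from treatment means over both times correlated at 0.943, 0.923 and 0.906, values into which the time also enters. At 5 h, estradiol and DMSO arrays of the same number had Pearson correlations of 0.996 and 0.994, and those of different numbers 0.964. The numbers were therefore taken to pair the samples. Named genes are the defensins, list members and the 4 nearest patterns of each defensin. Members and lists were chosen with earlier results of these data known. No defensin sequence was used here.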

Additional observations from a re-analysis of the deposited data

Results flagged for a closer look

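Each of the 3 defensins was higher with estradiol at 3 h and lower with it in both 5 h pairs, as were 7.59% of the tested probe sets. The mean difference at 5 h minus the difference at 3 h was -1.84 for PDF1.2, -3.16 for PDF1.2b and -0.91 for PDF1.4. The difference between the times was not tested, since these contrasts were used to choose the genes and 3 h had 1 array per treatment. For PDF1.4 it rests on replicate 2, since replicate 1 was at -0.06.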

How the results depend on the processing

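The mean 5 h differences of the defensins kept their sign under every scaling tried: -1.12 to -1.10 for PDF1.2, -2.70 to -2.68 for PDF1.2b and -0.56 to -0.54 for PDF1.4. Their 3 h differences ran from 0.72 to 0.76, 0.46 to 0.50 and 0.35 to 0.37. The scalings moved the median difference of a pair by only -0.06 to 0.08, so the kept signs show little. Leaving out 1 pair gave -1.31 to -0.93, -3.52 to -1.88 and -1.06 to -0.06; with 2 pairs such values always lie within 1 SD of the mean, so this shows little. The count of probe sets called at 5 h, 1, became 0 with the pair as a replicate block, without a filter, after quantile normalization, with arrays centred on the median and without a mean-variance trend. Over both times the count of 1 became 0 with the replicate block, without a filter, after quantile normalization and without the trend. Leaving out single arrays gave 0 to 1 in both fits: 0 without either estradiol array of 5 h in the first, and without any single 5 h array in the second. The stricter filter, at the 60th percentile, kept 1 call in both. The cause of these changes was not tested. Signal over background cannot be read from the deposited values.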
